A study of Caenorhabditis elegans with 2 samples.

Results

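The 10 genes described here are xol-1, sdc-1, sdc-2, sdc-3, her-1, dpy-21, dpy-26, dpy-27, dpy-28 and dpy-30, chosen by their known roles in sex determination and dosage compensation from 19985 annotated protein-coding genes of Caenorhabditis elegans. Each gene was described by the ChIP-seq peak summits between 5000 bp upstream of its start and 1000 bp past its end. The protein immunoprecipitated was CEH-82 (gene F45C12.2), a homeobox protein, fused at its C-terminus to GFP and FLAG in strain OP212, whose labelled genotype is unc-119(ed3) III; ddEx58. Whole animals of the L4 larval stage gave 2 biological replicates of 1 group, and chromatin was fragmented by sonication. Their sex is described as males and females pooled, and the proportion of males is not known here. The age is labelled unknown, no source used here says what drives the transgene, and the labels name both an insertion and a transgene whose name marks an extrachromosomal array. No other genotype, stage or protein was analysed here. Peak lists hold no expression levels, so neither the labelled stage nor the sex was checked against marker genes. The control behind the authors' peak calls was not analysed here either, so no peak is shown to be bound by CEH-82.

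Sex in this animal follows the number of X chromosomes relative to sets of autosomes. The X-linked gene xol-1 is the switch: it is active in XO males, where it blocks sdc-2, and silent in XX hermaphrodites. There SDC-2, with SDC-1 and SDC-3, represses the male-promoting autosomal gene her-1 and brings the dosage compensation complex to both X chromosomes, whose transcription it lowers. The complex contains the condensin proteins DPY-26, DPY-27 and DPY-28 together with DPY-21 and DPY-30, and it loads at recruitment sites on X that share a short sequence.

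The signal value below is the authors' score for a peak, set against a control in units that no source states, so it ranks peaks within a list only. Of 15658 pooled ce11 peaks, called at a relaxed threshold on the reads of both replicates, the median signal value was 2.95. The authors' thresholded list, their optimal set from an irreproducible discovery rate procedure (IDR), held 57 of these with values of at least 16.4. Of the 57, 50 lay on nuclear chromosomes and the others on the mitochondrial genome. The replicate lists held 4561 peaks (median 2.66, replicate 1) and 8651 peaks (median 2.84, replicate 2), and read depth is unknown. The pooled list is made from the same reads as the replicate lists and does not add to them as a further replicate. With 1 group and genes chosen by function no test was made, and counts over the 10 genes are given with the share of all protein-coding genes. The choice was made with earlier results of these data known, so the 10 genes are not a set independent of the data.

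xol-1 (WBGene00006962, X:8041313-8044409, plus strand) had the strongest peak of the 10 genes. The pooled peak at X:8036259-8036628 had a signal value of 49.3 and ranked 2 of 15658. In replicate 1 the overlapping peak had a signal value of 9.67 and ranked 34 of 4561. In replicate 2 it had a signal value of 40.9 and ranked 2 of 8651. The peak was thus near the top of each list, lower in the order of replicate 1, and it was in the thresholded list. Its summit was intergenic, 4869 bp upstream of xol-1, and the replicates' summits lay 11 bp and 4 bp from the pooled one. It was 131 bp inside the upstream edge of the window. Among the 1000 strongest pooled peaks, the nearest to the edge of any of the 10 windows on the outer side lay 14768 bp beyond it. That peak (signal value 7.46) was past the end of the sdc-1 window, and its nearest coding start was that of twk-21.

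The sequence within 100 bp of the xol-1 upstream summit is shown because it holds the letters CGCAGGG, the core of the sequence known from recruitment sites of the dosage compensation complex on X. It is chrX:8036344-8036544, plus strand of ce11, with CGCAGGG or its reverse complement in capitals.
xol-1 upstream peak: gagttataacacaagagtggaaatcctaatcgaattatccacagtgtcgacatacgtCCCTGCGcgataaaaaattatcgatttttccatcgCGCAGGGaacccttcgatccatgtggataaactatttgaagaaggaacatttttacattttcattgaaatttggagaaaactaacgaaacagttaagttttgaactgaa
The core occurs in it in both orientations, with its middle 5 bp (plus strand) and 40 bp (minus strand) upstream of the summit. The matching run is longer than the core: the letters ATCGCGCAGGGA are in both copies, at X:8036432-8036443 on the plus strand and X:8036400-8036411 on the minus strand, 20 bp apart. The ce11 nuclear genome holds this run of 12 letters 10 times on X and 1 time on the autosomes, both strands counted. Leaving out the pair upstream of xol-1, from which the run was taken, 9 copies remain, and 7 of them lie in pooled peaks on X. The run was read from these positions after the peak was known, so the copies describe where these letters lie and carry no test.

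The core alone was searched on both strands within 100 bp of every nuclear summit. Around the summits in the windows of the 10 genes it was found at 1 of 24 peaks, the xol-1 upstream peak. It was at 12 of the 20 thresholded X peaks (60%), at 0 of the 30 thresholded autosomal peaks and at 96 of 15640 nuclear pooled peaks (0.614%). Of 498866 consecutive stretches of the same 201 bp across the nuclear genome, 0.316% held it. The xol-1 upstream peak held 2 copies, as did 4 of the 20 thresholded X peaks, itself included, and at least 2 were at 5 of the 15640 nuclear pooled peaks.

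Small RNA genes lie beside the same summit. The noncoding RNA gene C18A11.13 (X:8036674-8036762, plus strand) starts 230 bp to its right, and the tRNA gene WBGene00022939 (X:8036685-8036757, minus strand) lies within it on the other strand, with its start 313 bp from the summit. Neither is covered by the called peak in any list. A weaker pooled peak at X:8037630-8037999 (signal value 2.35, rank 12305) had its summit 3498 bp upstream of xol-1 and 308 bp downstream of the start of another tRNA gene, WBGene00022938, and overlapped no peak of either replicate. No summit of the 4 lists lay inside xol-1 itself or upstream of it by less than that peak's 3498 bp.

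**Figure D1:**
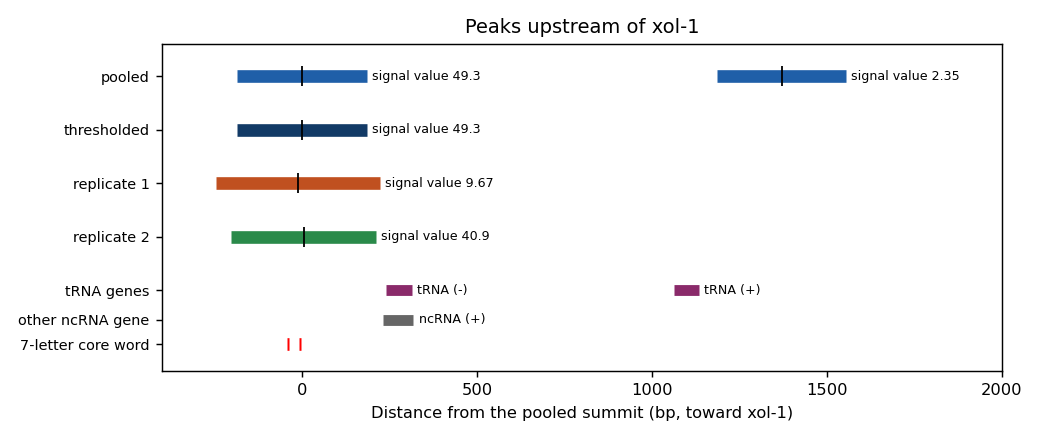
Peaks of each list upstream of xol-1 by distance from the pooled summit (bp), with summits as black ticks, the tRNA and other noncoding RNA genes, and the 7-letter core CGCAGGG in red. The strong peak overlaps in all 4 lists, with signal values of 49.3 in the pooled and thresholded lists, 9.67 in replicate 1 and 40.9 in replicate 2, and both core copies lie left of its summit.

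Of the sdc genes, sdc-2 had a peak at its start in the pooled list and in both replicates. SDC-2 is the protein that targets the complex to X in hermaphrodites. The pooled peak at X:11522106-11522475 had a signal value of 11.1 and ranked 170 of 15658, with its summit 416 bp upstream of sdc-2 (WBGene00004746, X:11522707-11533450, plus strand). In replicate 1 the overlapping peak had a signal value of 2.73, close to that list's median, and ranked 2124 of 4561. In replicate 2 it had a signal value of 6.28 and ranked 421 of 8651. The replicates therefore gave the same position, 0 and 5 bp from the pooled summit, but not the same standing in their lists, and the peak is not in the thresholded list. It was the member summit of highest signal value whose nearest coding start was within 500 bp and was the member's own. Its sequence, chrX:11522191-11522391 on the plus strand, is shown for comparison with the peak upstream of xol-1, with the 7 bases centred on the summit in capitals.
sdc-2 upstream peak: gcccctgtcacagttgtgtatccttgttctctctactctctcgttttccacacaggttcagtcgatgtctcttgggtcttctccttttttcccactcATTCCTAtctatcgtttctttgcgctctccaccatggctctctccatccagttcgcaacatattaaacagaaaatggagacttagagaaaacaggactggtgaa
It lacks the letters CGCAGGG, and 45.3% of its bases are G or C, against 36.3% in the sequence upstream of xol-1.

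A further 4 pooled peaks lay in the sdc-2 window, with signal values from 2.20 to 3.45. Their summits fell in coding exons of sdc-2 (3 peaks) and in the 5' UTR of the neighbouring gene C35C5.8 (1 peak). The one of 2.97 at C35C5.8 overlapped a replicate 2 peak (signal value 2.94, rank 4019). The one of 2.22 in sdc-2 overlapped a replicate 1 peak (2.23, rank 3567) whose summit was 401 bp away.

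sdc-1 and sdc-3, which encode zinc finger proteins that act with SDC-2, had weak peaks at most. In the window of sdc-1 (WBGene00004745, X:16275763-16282534, plus strand) the pooled peak had a signal value of 3.65 and ranked 4700. It covered the tRNA gene WBGene00014388 (X:16271296-16271367), and its summit was 4580 bp upstream of sdc-1. The summit was nearer to the start of ifa-3 (1114 bp), an intermediate filament gene, and the peak overlapped no replicate peak. Replicate 2 had a peak elsewhere, in a coding exon of sdc-1 (signal value 2.41, rank 6289). At sdc-3 (WBGene00004747, V:15039148-15048207, minus strand) neither the pooled list nor replicate 1 had a summit, and replicate 2 had 1 in a coding exon (signal value 2.29, rank 6911 of 8651).

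Upstream of xol-1 and sdc-1 all 3 pooled summits lay within 500 bp of a tRNA gene's start, and none of the other 21 in the windows did. Together they were 3 of 24 (12.5%), autosomal peaks included, set beside 1.48% of 15640 nuclear pooled peaks. All 3 are on X, where the share was 4.29% of the 2658 pooled peaks. It was 2 of the 20 thresholded X peaks (10%), the xol-1 upstream peak among them. This distance was chosen with the positions already known.

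her-1 (WBGene00001842, V:9697015-9702035, plus strand) encodes the secreted protein that promotes male fate by inhibiting the receptor TRA-2, and it is the known autosomal target of the SDC proteins. Its window held 1 pooled peak, V:9701924-9702293, which spans the gene end with its summit just past it, and which had a signal value of 2.62, below the list's median, and ranked 10041. In replicate 1 it had a signal value of 2.13 and ranked 3997 of 4561, and replicate 2 had no summit in the window. No list had a summit inside her-1 or in the 5000 bp before its start, and the nearest thresholded peak was 1196 kb from that start.

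Of the 5 genes for subunits of the complex, dpy-28 had a peak in the thresholded list, but at the start of another gene. The pooled peak III:10759198-10759307 had a signal value of 40.5 and ranked 7 of 15658. In replicate 1 it had a signal value of 11.3 and ranked 27 of 4561, and in replicate 2 it had 28.4 and ranked 8 of 8651, with the same summit base in all lists. That summit was 3878 bp upstream of dpy-28 (WBGene00001087, III:10763131-10777076, plus strand), the gene of a condensin HEAT-repeat subunit, and 54 bp upstream of tasp-1. The start of tasp-1, which by its name encodes a relative of the protease taspase, is the one coding start between the summit and dpy-28. The rest of the dpy-28 window, the gene body of 13.9 kb included, held no summit in any list. The sequence chrIII:10759153-10759306, plus strand, is shown to the last base before tasp-1, with the 7 bases centred on the summit in capitals.
dpy-28 window, tasp-1 upstream peak: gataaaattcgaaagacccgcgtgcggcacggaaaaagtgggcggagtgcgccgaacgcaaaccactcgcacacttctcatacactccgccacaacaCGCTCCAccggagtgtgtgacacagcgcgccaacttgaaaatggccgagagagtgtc
It holds no CGCAGGG, and 57.1% of its bases are G or C, the xol-1 upstream sequence having 36.3%.

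dpy-21 had the most pooled peaks of the 10 genes, 8 in a window of 18.9 kb. DPY-21 is the enzyme of the complex that demethylates histone H4 at lysine 20. Its strongest peak, V:17951286-17951655, had a pooled signal value of 7.52 and ranked 551, with the summit 2278 bp upstream of dpy-21 (WBGene00001080, V:17936282-17949193, minus strand) and 478 bp upstream of Y59A8B.24. In replicate 1 the strongest overlapping peak had 3.83 (rank 639), with its summit 133 bp away. In replicate 2 it had 2.34 (rank 6598), below that list's median. By rank within its list, replicate 1 thus placed this peak higher than replicate 2 did, the reverse of sdc-2. The second strongest, in an intron of dpy-21 (5.1, rank 1753), overlapped a peak of replicate 2 (3.67, rank 2199) and none of replicate 1. The other 6 had signal values from 2.18 to 3.20, and 1 of them, 561 bp upstream of the start, overlapped a replicate 2 peak (3.0, rank 3820).

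dpy-27, the gene of the SMC ATPase that is particular to this condensin, had a summit 45 bp past its start in the pooled list and in replicate 2. That peak, III:3819449-3819818, had a pooled signal value of 3.39 and ranked 5669, and in replicate 2 it had 4.03 and ranked 1660 of 8651. Replicate 1 had no summit in the dpy-27 window (gene WBGene00001086, III:3813018-3819679, minus strand). The other 3 pooled peaks had signal values of 2.07 to 3.04 and no counterpart in either replicate. dpy-30, which encodes a small protein shared with Set1/COMPASS histone methyltransferase complexes, had a pooled peak of 2.01, rank 15602, with its summit 397 bp upstream of the start (WBGene00001088, V:12191519-12192385, plus strand). Replicate 1 had that peak at 2.58 (rank 2524 of 4561). Replicate 2 had a summit elsewhere in the window, 3459 bp upstream (2.18, rank 7507). The other pooled peak there, 3.65 and rank 4693, lay in an intron of rnp-1, an RNA-binding protein gene. dpy-26 (WBGene00001085, IV:12445801-12451335, minus strand), the gene of the complex's kleisin subunit, had no summit in any of the 4 lists.

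**Figure D2:**
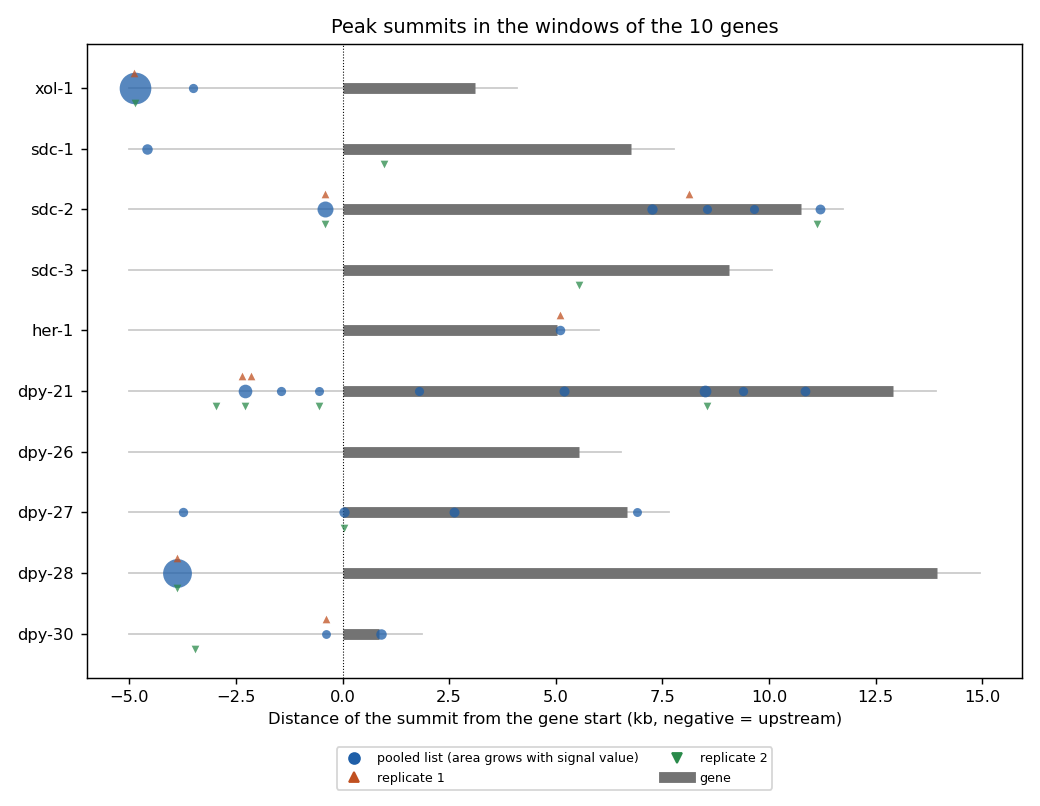
Summits in the window of each of the 10 genes by distance from the gene start (kb), with the gene as a grey bar, pooled summits as circles whose area grows with signal value, and replicate summits as triangles. The large circles are the peaks upstream of xol-1 (49.3) and in the dpy-28 window (40.5), 3878 bp or more from the gene's start.

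Only 4 of the 24 pooled peaks in the windows overlapped a peak of both replicates by at least 1 bp: those at xol-1, sdc-2 and dpy-28 and the strongest one at dpy-21. They were also the only 4 among the 1000 strongest. Of the 24, 7 had a counterpart in replicate 1 (29.2%, against 21.3% of all pooled peaks), 8 had one in replicate 2 (33.3%, against 43.2%), and 13 had none. The share in replicate 2 was thus below that of all pooled peaks. The share in both, 16.7%, is set beside 6.98% of all 15658 pooled peaks and 46.9% of the 1000 strongest. The authors' −log10 q-value was at the list's upper limit of 2.32 for the same 4 and for the dpy-21 intron peak. Signal values of 12 of the 24 were above the pooled list's median.

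**Figure D3:**
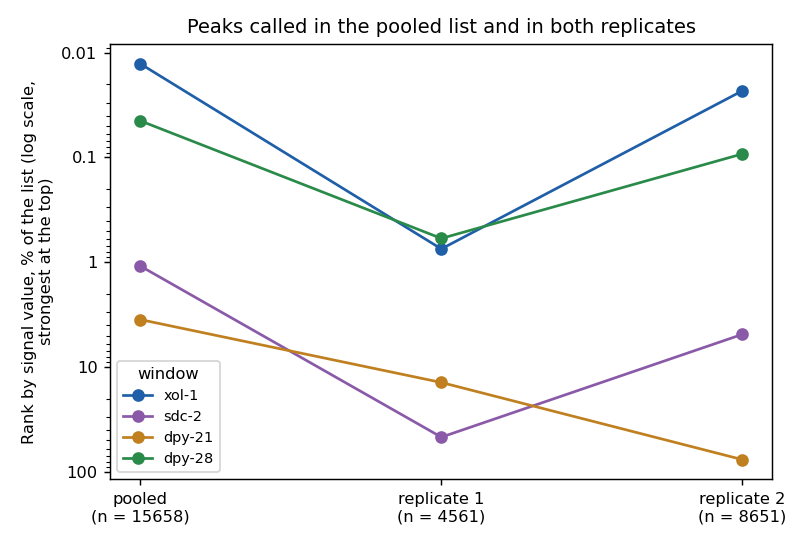
Rank by signal value as a percentage of each list (log scale, strongest at the top) for the 4 peaks called in the pooled list and in both replicates. The xol-1 and dpy-28 window peaks stay within the top 1% of every list, while those at sdc-2 and dpy-21 reach 46.6% in replicate 1 and 76.3% in replicate 2.

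Over the pooled list 8 of the 10 genes had a summit in the window, against 68.8% of all protein-coding genes, so that count is near what any gene shows. Among the 1000 strongest pooled peaks it was 4 of 10 (xol-1, sdc-2, dpy-21 and dpy-28), against 9.28% of all genes. In the thresholded list it was 2 of 10 (xol-1 and dpy-28), against 0.655% of all genes, 1.14% of the X-linked genes and 0.522% of the autosomal ones. The share of all genes includes mitochondrial genes, which the other shares leave out. With replicate 1 it was 6 of 10, against 32.4% of all genes, and with replicate 2 it was 8 of 10, against 48.8%. Both replicates had a summit in the window for 5 of 10, against 20.8%, and an overlapping pair for 4 of 10, against 8.33%. These windows were longer than most, with a median of 12.7 kb for the 10 genes and 8.03 kb for all protein-coding genes. Per 10 kb of sequence the 10 windows held 1.78 pooled summits, and the nuclear genome held 1.56. For the 1000 strongest these values were 0.297 in the windows and 0.0981 in the genome. Counted close to the start, in the 1000 bp before it and the 500 bp after it, 4 of the 10 genes had a pooled summit (25% of all genes), 1 had one of the 1000 strongest (sdc-2, 2.81% of all genes) and none had a thresholded one (0.245% of all genes). With 10 genes, each gene moves a share by 10 percentage points. Because the genes were chosen with earlier results of these data known, differences from the share of all genes carry no test.

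**Figure D4:**
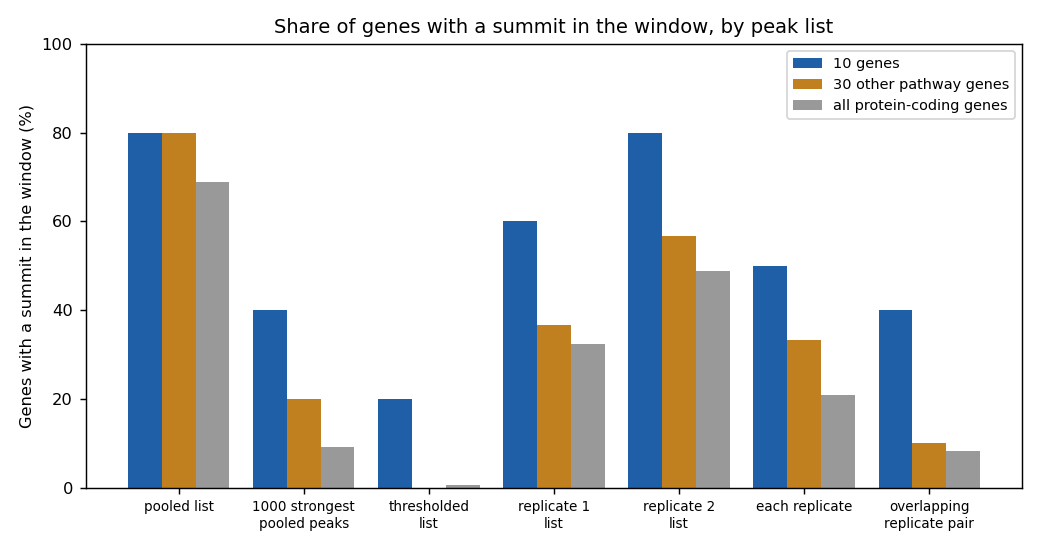
Share of genes (%) with a summit in the window by peak list, for the 10 genes, 30 other pathway genes and all 19985 protein-coding genes. The 10 genes reach 80%, 40% and 20% in the pooled, 1000 strongest and thresholded lists, and all genes 68.8%, 9.28% and 0.655%.

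Most summits lay between genes or in coding exons. Of the 24 pooled summits, 11 were intergenic, 7 in coding exons, 5 in introns and 1 in a 5' UTR, and 3 lay within 500 bp of the start of the gene that the window belongs to, at sdc-2, dpy-27 and dpy-30. The member's own start was the nearest coding start for 12 of them. The same counts over all pooled peaks are not given, so these positions are not shown to be particular to the windows. The median share of G and C within 100 bp of the summit was 37.1%, and that of all nuclear pooled peaks was 37.3%. The homeodomain-type word TAATTA, which reads the same on both strands, was at 5 of the 24 (20.8%), 3 in the dpy-21 window and 2 in that of dpy-27. It was at 8.25% of nuclear pooled peaks and in 9.32% of genome stretches of the same length. Of the 984 nuclear peaks among the 1000 strongest, 6.2% held it. So did 3 of the 20 thresholded X peaks and 1 of the 30 thresholded autosomal peaks. The 5 sequences with the word in the windows had 22.9 to 38.8% G and C, and none was among the 1000 strongest peaks. The B box core of tRNA genes, GGTTCGA, was at 1 of the 24, in an intron of dpy-21, and at 2.06% of nuclear pooled peaks and in 1.45% of genome stretches.

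The other genes of these pathways, 30 in 6 lists, held no thresholded summit. A pooled summit was in the window of 24 of them, against the 68.8% of all genes given above, and one of the 1000 strongest in the window of 6, against 9.28%. Both replicates had an overlapping pair at 3 of them, ash-2, tra-1 and tra-2, against 8.33%. Their windows had a median length of 11.0 kb.

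Of the 5 signal elements that xol-1 reads, all had a pooled summit, against 68.8% of all genes. The strongest was at fox-1, an X-linked gene for an RNA-binding protein that lowers xol-1 expression, with a signal value of 6.82 (rank 727) in its 5' UTR, 3.28 in replicate 1 and no overlapping peak in replicate 2. At ceh-39, another X-linked element and a homeobox gene, the summit was 171 bp upstream of the start with a value of 3.99, 5.68 in replicate 2 (rank 550) and no overlapping peak in replicate 1. The strongest summits in the windows of the autosomal elements sea-2 and sea-1 had values of 4.53 and 3.67. That in the window of the X-linked nuclear receptor gene sex-1 had 2.86, below the list's median. In this order they lay nearest to the starts of other genes, K10G6.9 (350 bp), F19B10.2 (1722 bp) and F44A6.3 (3264 bp). Neither replicate had a summit in the windows of sea-1 and sex-1.

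Of the 9 genes that act below her-1, 7 had a pooled summit, against 68.8% of all genes. In the window of tra-2, the gene of the membrane receptor that HER-1 inhibits, the strongest had a value of 6.76 (rank 749). It lay 2671 bp upstream, in a coding exon of C15F1.5 and 696 bp from the start of eif-2Bgamma, and had 4.03 in replicate 1 and 5.23 in replicate 2. At tra-1, the gene of the zinc finger protein that ends the pathway, the strongest (6.23, rank 941) lay in a coding exon, with 2.04 in replicate 1 and 3.55 in replicate 2. The next were fog-1 (6.04, in the 3' UTR), a gene of sperm fate, and fem-1 (4.21, 48 bp past the start), a gene of male fate. fem-2 and fog-3 had no pooled summit. Of the 3 known targets of TRA-1, mab-3 (3.80) and dmd-3 (2.03, rank 15436) had a pooled summit and egl-1 had none, beside the same share of all genes. The mab-3 summit was intergenic, 6643 bp past the start and nearest to the start of pno-1 (4104 bp). Neither replicate had a summit in the windows of these 3 genes.

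Among other condensin subunits 4 of 6 had a pooled summit, against 68.8% of all genes, a share that applies to each list in this paragraph. mix-1, whose SMC protein is a partner of DPY-27 in the complex, had the strongest, 7.25 (rank 620) in a coding exon 15927 bp past the start, with 6.10 in replicate 2 and no overlapping peak in replicate 1. smc-4 (5.0), capg-2 (3.13) and capg-1 (2.81) followed, and kle-2 and hcp-6 had no pooled summit. Replicate 1 had 2 summits in the window of hcp-6, and neither replicate had one in the windows of capg-2 and capg-1. The histone H4 lysine 20 methyltransferase genes set-1 (5.04) and set-4 (4.02) both had one. Of the 5 Set1/COMPASS genes, whose complexes share DPY-30, 4 had one, and the strongest of the 30 genes were here. ash-2 had 12.6 (rank 117), in an intron 472 bp past the start, with 4.86 in replicate 1 (rank 243) and 7.35 in replicate 2 (rank 277). That summit was about as near to the start of another gene, Y17G7B.20 (466 bp). wdr-5.1 had 9.79 (rank 245), 111 bp past its start, with 7.68 in replicate 2 (rank 236) and no overlapping peak in replicate 1. cfp-1 (5.07) and set-2 (3.64) were weaker, and rbbp-5 had none. The cfp-1 summit, in the 3' UTR of cfp-1, was nearest to the start of F52B11.2 (277 bp). The set-2 summit was intergenic, 4873 bp upstream of set-2 and nearest to the start of mrps-18C (501 bp).

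**Figure D5:**
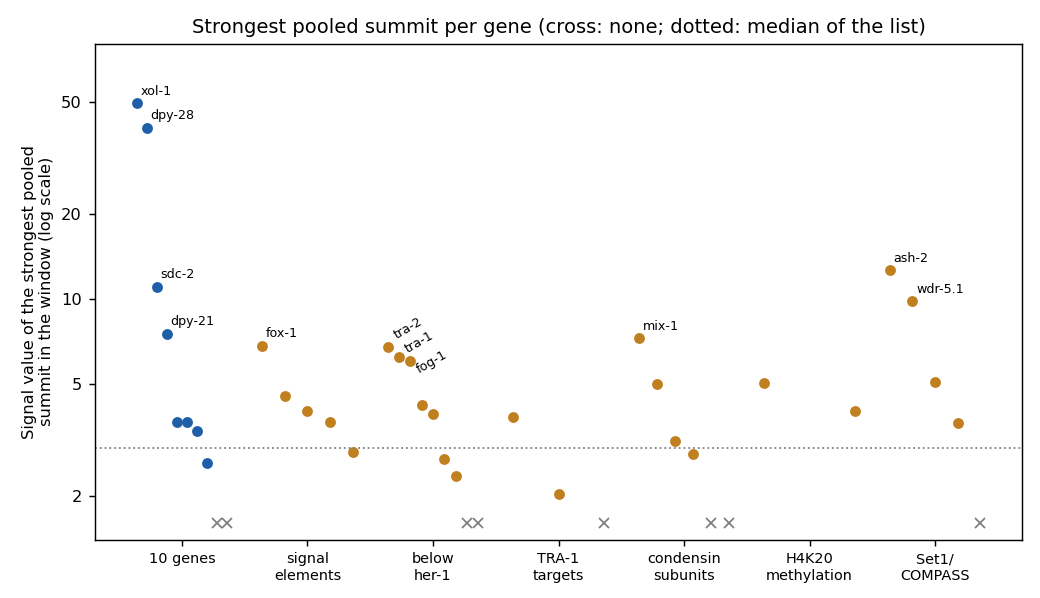
Signal value (log scale) of the strongest pooled summit in the window of each of the 10 genes and of 30 other pathway genes in 6 lists, with crosses for genes without one and the list's median of 2.95 dotted. The values at xol-1 (49.3) and dpy-28 (40.5) are above all others, the next being ash-2 (12.6) and sdc-2 (11.1).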

How the data were processed

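ChIP-seq of tagged CEH-82 from 2 replicates was analysed from peak lists in narrowPeak form on ce11, and lists on ce10 were not used. Per the deposited text, the authors called peaks and background for IDR in each replicate and in pooled reads against a control, and derived an optimal thresholded list. No source used here names the caller, the aligner or a version. Signal values are a score the authors deposited, and the −log10 q-value was deposited by the authors beside it. Gene positions were those of Ensembl release 115 on WBcel235, which has ce11 coordinates, and sequence was read from RefSeq's WBcel235. Of the 10 genes, 7 have the same ends in RefSeq, and 0 peaks passed a chromosome end. Gene starts may be trans-splice sites, downstream of where transcription begins. Summits were assigned to windows with Python 3.11.15 and NumPy 2.4.6, checked on simulated summits. Overlap means at least 1 bp. Nearest noncoding genes leave out piRNA genes and pseudogenes.

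The members, the lists of other pathway genes and the short words, written from general knowledge, were chosen with earlier results of these data known. Named genes are the 10, the genes nearest to their thresholded or 1000 strongest peaks, and pathway genes with one of the 1000 strongest peaks or among the 4 strongest of their list, and others were named after their values were seen. Alternatives were other windows, other peak numbers, an overlap rule and each replicate alone. No p-value was computed.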

Additional observations from a re-analysis of the deposited data

How the results depend on the processing

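With a window from 1000 bp upstream of the start to 500 bp downstream, the counts of the 10 genes were 4 (pooled list), 1 (1000 strongest) and 0 (thresholded), with the all-gene shares given above, and 10 of the 30 pathway genes had a pooled summit. From 2000 bp upstream to the gene end they were 4, 1 and 0, against 49.1%, 5.28% and 0.36% of all genes, and in the gene body alone 3, 0 and 0, against 31.2%, 2.15% and 0.0701%. The pooled counts in both were near the share of all genes, below it by less than the 10 percentage points that 1 gene moves. Starting 4000 bp upstream, an alternative chosen after seeing the data, left 1 gene with a thresholded summit (0.58% of all genes), dpy-28, because the xol-1 summit lies farther upstream. With 1 replicate's list the 10 genes gave 6 to 8 genes, the 1000 strongest gave 3 in each case (9.07% of all genes in replicate 1, 9.27% in replicate 2), and the pathway genes gave 11 to 17. Among the 1000 strongest peaks of each replicate 2 genes had a summit in both (3.04% of all genes). Per 10 kb the windows held 0.594 summits with replicate 1's list and 0.891 with replicate 2's, against 0.452 and 0.863 in the nuclear genome. The value of replicate 2 was thus close to that of the genome. With pooled peaks above the median signal value the windows held 0.891, and no genome value is given for these. The thresholded list could not be remade without a replicate. With a window from 6000 bp upstream the counts of the 10 genes were 8 (pooled), 4 (1000 strongest) and 2 (thresholded). Peak overlap in place of summits gave 8 (pooled) and 2 (thresholded). The 300 strongest peaks gave 3 genes and the 3000 strongest gave 4. All these were within 1.5 times the main counts. Shares of all genes are not given for these settings, so the counts do not show whether the difference from all genes stayed the same. Within 150 bp of the summit, also chosen after seeing the data, 14 thresholded X peaks held CGCAGGG. No paired analysis was possible because there is 1 group. Depth and control are unknown, and 2 replicates limit any statement on reproducibility.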

Other observations

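The 12 letters shared by the pair of copies upstream of xol-1 were also in 6 other pooled peaks, all on X and named here after their values were seen. In order of signal value these were the peaks nearest to cest-16 (48.9, rank 3), nspc-17 (39.9, rank 9), F20B6.9 (37.8, rank 12), F22H10.2 (35.9, rank 13), Y41G9A.17 (26.6, rank 21) and col-185 (10.2, rank 225). The peak at X:2997064-2997433 near Y41G9A.17 held 2 copies, as the xol-1 upstream peak did, and the others held 1 each. Of the 7 peaks with the letters, 6 were in the thresholded list, and the peak near col-185 was not. The strongest pooled peak, on X nearest to K02D3.1 (56.9), held no copy of the letters and no CGCAGGG within 100 bp of its summit.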
